A study of Mus musculus with 8 samples.

Results

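The genes described here are 28 mouse genes of cholesterol synthesis, of its control by the SREBP transcription factors, and of cholesterol uptake and transport. They were taken as a list by name, by their place in the pathway and not by a threshold on the binding data, although earlier results of these data were known when the list was drawn up. Of the 28 genes, 27 have an entry in the annotation used, out of 22380 protein-coding genes in all, and the remaining one, Hmgcs1, was not analysed here. The 27 genes comprise 16 of synthesis, 5 of SREBP control and 6 of uptake and transport. The question was how close to these genes SMAD4 was bound in early limb buds, and whether this differed between E9.5 and E10.5.

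SMAD4 binding was profiled by ChIP-seq with the M2 antibody against the FLAG tag. All embryos carried the Smad4Flag genotype on the NMRI strain, that is, both copies of the endogenous Smad4 gene were fused to a triple FLAG tag (Smad4 3xF/3xF), and untagged embryos were not analysed here. There were 8 libraries: at each of E9.5 and E10.5, 2 SMAD4 ChIP replicates and 2 input controls. According to the protocol, an E9.5 replicate pooled forelimb buds with the attached trunk from about 80 embryos taken at E9.75, and an E10.5 replicate pooled forelimb and hindlimb buds from about 100 embryos, although the source label reads forelimb bud for every sample. Stage and tissue thus changed together and cannot be told apart, and the files hold no expression values against which the tissue could be checked. The authors combined the 2 replicates of a stage into 1 peak list, with 2073 peaks at E9.5 and 6185 at E10.5, so that no value below has an error between replicates and no test between stages was made. Read depth is unknown. Each stage is therefore read against the share of all protein-coding genes counted in the same way in that stage's own list.

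SMAD4 is the partner that receptor-activated SMAD proteins share when they carry BMP and TGFβ signals into the nucleus, where SMAD proteins contact the SMAD box CAGAC and GC-rich sites such as GGCGCC. Cholesterol is made from acetyl-CoA through mevalonate, farnesyl pyrophosphate, squalene and lanosterol. When sterols are scarce, SCAP escorts the SREBP precursors out of the endoplasmic reticulum and the released SREBPs switch on the pathway, whereas INSIG proteins hold SCAP back when sterols are plentiful, and LXR receptors turn on cholesterol export. In the embryo, cholesterol is attached to Hedgehog ligands and takes part in Smoothened signaling, and inherited defects of late synthesis enzymes such as DHCR7, EBP, NSDHL and SC5D cause malformations.

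To show the sequence under the peaks nearest to a cholesterol gene, matches to SMAD motifs within these peaks are given. They are matches of letters within wide peaks, and the data do not place binding on any of them. Peaks with a centre within 5 kb of a gene's 5′ end were found at Cyp51 and Nr1h2 alone among the 27 genes. Cyp51 encodes lanosterol demethylase and lies on the minus strand at chr5:4081145-4104746 (mm9). Nr1h2 encodes LXRβ, a receptor for oxysterols, and lies on the minus strand at chr7:51804986-51809321. The 30 bases around 5 motif matches are given 5′ to 3′ on the strand of the match, with the match in capitals. The Cyp51 matches are all on the plus strand at chr5:4104476-4104505 (0.26 kb downstream of the 5′ end and 0.01 kb from the E9.5 peak centre), chr5:4104627-4104656 (0.10 kb downstream) and chr5:4104830-4104859 (0.10 kb upstream). The Nr1h2 matches are at chr7:51809361-51809390 on the plus strand (0.06 kb upstream, 2.24 kb from the peak centre) and at chr7:51806834-51806863 on the minus strand (2.47 kb downstream).
Cyp51 SMAD box: accaggacgtcaCAGACggggcggggcttc
Cyp51 CAGACC match: ccccgagaaccgCAGACCacgaggtcccgc
Cyp51 GC-rich match: ccccctccgtggGGCGCCcgcctctgcggc
Nr1h2 GC-rich match: ccggtctgccagGGCGCCaccgactgtgag
Nr1h2 CAGACC match: ggcccctgggtgCAGACCctcagtcccgag

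SMAD4 peaks lay at the starts of few cholesterol genes at both stages, and at the starts of few protein-coding genes in general. At E9.5, 1 of the 27 genes (3.70%), Cyp51, had a peak centre within 5 kb of its 5′ end, against 2.63% of all protein-coding genes. At E10.5, 2 genes (7.41%), Cyp51 and Nr1h2, had one, against 13.0% of all protein-coding genes. Within 100 kb, 5 genes (18.5%) had a peak at E9.5, against 20.5% of all, and 17 genes (63.0%) at E10.5, against 52.9% of all. In the full lists, the share within 100 kb was thus near the background at E9.5 and above it at E10.5. The share within 5 kb at E10.5 was below the background, and these differences rest on small numbers. The lists differ in length. With the E10.5 list shortened to its 2073 best-scored peaks, 8 genes (29.6%) had a peak within 100 kb, against 6262 of the 22380 protein-coding genes (28%). The same 2 genes (7.41%) had one within 5 kb, against 6.31%. At this length, both E10.5 shares were near the background.

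Between these limits the share of cholesterol genes with an E10.5 peak rose late and then steeply. Within 20 kb it was 7.41%, against 23.2% of all protein-coding genes, and within 50 kb it was 48.1%, against 37.7%. Accordingly, 11 of the 27 genes had their nearest E10.5 peak between 20 and 50 kb away, and 0 had their nearest E9.5 peak there. This band was not among the planned distances, and the share of all genes was not counted for it. Of these E10.5 peaks, those of Mvk, Sc5d, Srebf1 and Insig1 had that gene's start as the nearest, whereas the others lay nearer to the start of another gene. The median distance to the nearest E10.5 peak was 52.8 kb for the cholesterol genes (quartiles 32.2 and 152 kb) and 87.8 kb for all genes (quartiles 22.9 and 297 kb). At E9.5 the medians were 338 kb and 350 kb. The E9.5 share within 20 kb was 14.8% (Cyp51, Pmvk, Srebf1 and Scap), against 5.53% of all genes. Within 1000 kb, all 27 cholesterol genes had an E10.5 peak, against 91.2% of all genes, and 23 (85.2%) had an E9.5 peak, against 78.3%.

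**Figure D1:**
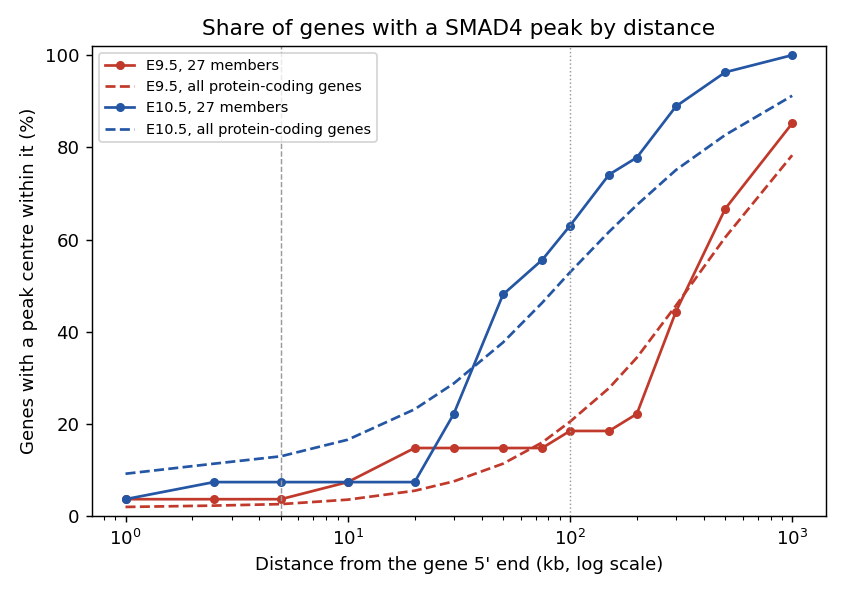
Percentage of genes with a SMAD4 peak centre within a given distance of the gene 5′ end (kb, log scale), for the 27 cholesterol genes (solid lines) and all protein-coding genes (dashed lines) in the E9.5 and E10.5 peak lists. Vertical lines mark 5 and 100 kb. The solid E10.5 line is at 3.70% at 1 kb and at 7.41% from 2.5 to 20 kb, below the dashed line, and lies above it from 50 kb on.

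The background depends on the kind of gene start. A start was called CpG-rich when the 500 bp on either side of the 5′ end had a GC content of at least 50% and an observed to expected CpG ratio of at least 0.6, and 18 of the 27 cholesterol genes (66.7%) had such a start, against 44.1% of all protein-coding genes. Among genes with CpG-rich starts, an E9.5 peak lay within 5 kb of 1 of the 18 cholesterol genes (5.56%), against 4.62% of all such genes, and within 100 kb of 4 (22.2%), against 25.5%. At E10.5 it lay within 5 kb of 2 of the 18 (11.1%), against 22.0%, and within 100 kb of 11 (61.1%), against 66.0%. Among genes with other starts, a split added after seeing the data, 0 of the 9 cholesterol genes had a peak within 5 kb, against 1.06% of all such genes at E9.5 and 5.94% at E10.5. Within 100 kb, 1 of the 9 (Srebf1, 11.1%) had one at E9.5, against 16.5%, and 6 (Mvd, Tm7sf2, Nsdhl, Ebp, Srebf1 and Nr1h3, 66.7%) at E10.5, against 42.4%. The E10.5 share within 100 kb was thus near the background for the 18 genes with CpG-rich starts and above it for the 9 with other starts, both on small numbers. Gene density was alike, with a median of 3 other protein-coding starts within 100 kb of the cholesterol genes and of all genes.

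**Figure D2:**
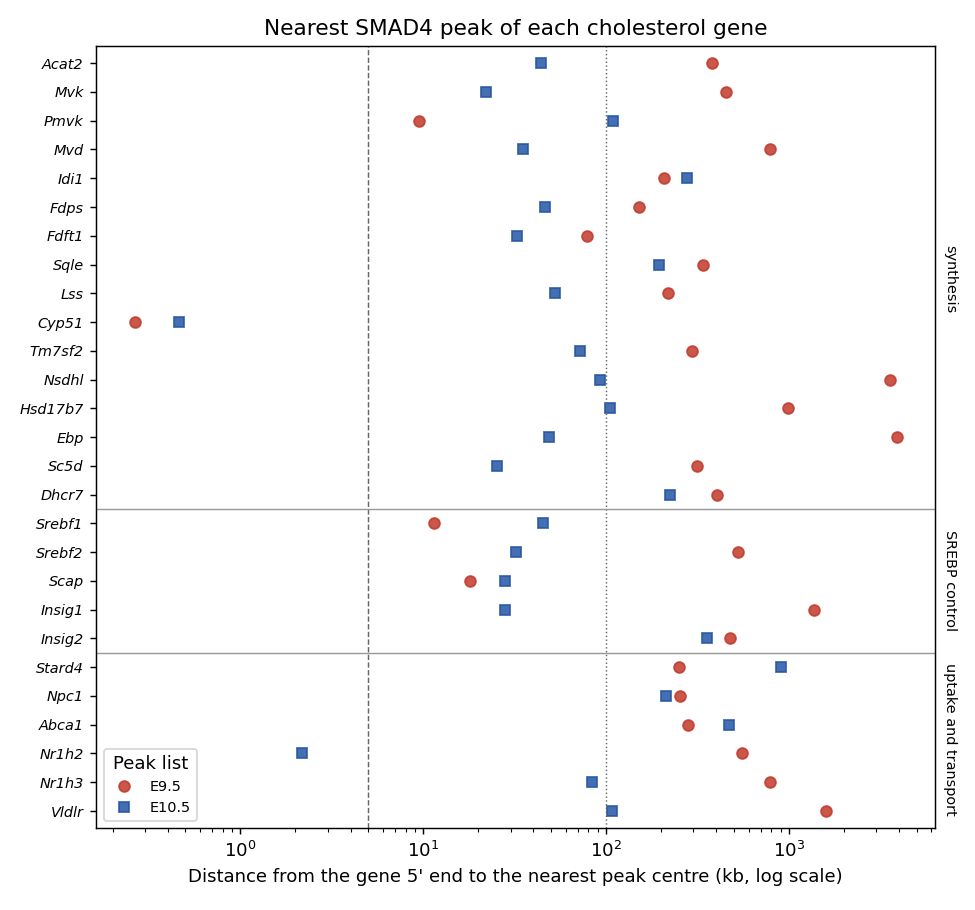
Distance from the 5′ end of each of the 27 cholesterol genes to the centre of its nearest SMAD4 peak (kb, log scale) in the E9.5 list (red circles) and the E10.5 list (blue squares), with genes grouped by role and vertical lines at 5 and 100 kb. Cyp51 lies left of the 5 kb line at both stages and Nr1h2 at E10.5, and 17 genes lie left of the 100 kb line at E10.5.

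The cholesterol genes with a peak within 100 kb are given here by stage, each share beside that of all protein-coding genes. The lists differ in length (2073 and 6185 peaks), and the division by stage was not repeated at equal length. Fdft1, Cyp51, Srebf1 and Scap had one in both lists (14.8%, against 14.6% of all protein-coding genes), and Pmvk had one at E9.5 alone (3.70%, against 5.85%). A further 13 genes had one at E10.5 alone (48.1%, against 38.2%), and 9 had one in neither list (33.3%, against 41.3%). By role, a peak within 100 kb was found at E9.5 for 3 of 16 synthesis genes (18.8%), 2 of 5 SREBP control genes (40.0%) and 0 of 6 uptake and transport genes. At E10.5 these numbers were 11 of 16 (68.8%), 4 of 5 (80.0%) and 2 of 6 (33.3%), with 20.5% and 52.9% of all genes as the backgrounds.

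In the mevalonate steps, 3 of the 4 genes had an E10.5 peak within 100 kb, against 52.9% of all protein-coding genes. Acat2, which joins acetyl-CoA units, had E10.5 peaks centred 44.16 kb downstream (score 85.83), in a coding exon of Tcp1, and 71.49 kb downstream (score 33.93). The score is the value deposited for each peak, with higher values for stronger peaks, and its median over the list is 56.3 at E9.5 and 59.8 at E10.5. Mvk, the mevalonate kinase, had 3 E10.5 peaks. Those 41.38 kb and 34.44 kb upstream had scores of 104.42 and 104.02 and lay in introns of Ube3b, whereas the peak 21.87 kb downstream had a score of 72.46 and was nearer to Mvk than to any other protein-coding gene. Mvd, which makes isopentenyl pyrophosphate, had E10.5 peaks 34.94 kb (59.74) and 86.28 kb (61.96) downstream.

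Pmvk, the phosphomevalonate kinase, was the gene with peaks at E9.5 and not at E10.5. An E9.5 peak at chr3:89270821-89274326 (score 57.1) was centred 9.53 kb downstream of its 5′ end in its own untranslated region, and no other protein-coding gene had its start nearer to this centre. Its other E9.5 peak (68.1) lay 28.58 kb upstream in an untranslated region of Pygo2. The nearest E10.5 peak was 109 kb away, just beyond the 100 kb limit, with a score of 50.98.

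In the isoprenoid steps, Fdps, the farnesyl pyrophosphate synthase, had 1 E10.5 peak 46.25 kb upstream (51.64) in a coding exon of Hcn3. Fdft1, the squalene synthase, had an E9.5 peak 78.21 kb upstream at chr14:63873919-63875754 (119.31), which ranked 141 of 2073. Its E10.5 peaks, 32.50 kb (50.33) and 73.98 kb (45.55) upstream, both scored below the list median. All 3 lay in introns of Gata4 and none overlapped a peak of the other stage. Idi1, the isopentenyl isomerase, had its nearest peaks 208 kb (E9.5) and 278 kb (E10.5) away. Sqle, the squalene epoxidase, had them 338 kb and 195 kb away.

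In the sterol ring steps, 6 of 8 genes had an E10.5 peak within 100 kb, against 52.9% of all protein-coding genes, and Cyp51 was the one with a peak at its start. The E9.5 peak at chr5:4103586-4105378 was 1793 bp wide, covered the 5′ end of Cyp51 and was centred 0.26 kb inside the gene in its untranslated region. Its score of 236.67 ranked 39 of 2073 and was the highest of any E9.5 peak within 100 kb of a cholesterol gene. The E10.5 peak at chr5:4103480-4105083, 1604 bp wide, overlapped it, and had a score of 75.7 and a rank of 1385 of 6185. Both peaks contained 2 of the 3 annotated transcript starts of Cyp51. This was the single pair of overlapping E9.5 and E10.5 peaks within 100 kb of the 27 genes. It made up 1 of the 7 E9.5 peaks there (14.3%, against 18.7% of the whole list) and 1 of the 31 E10.5 peaks (3.23%, against 6.26%), shares that rest on 1 pair of peaks.

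The other ring genes had E10.5 peaks at a distance. Sc5d, the lathosterol oxidase, had one 25.16 kb downstream (67.43) in an intergenic region, nearer to Sc5d than to any other protein-coding gene. Ebp, the sterol isomerase, had one 48.67 kb downstream (50.25) in an intron of Rbm3. Lss, the lanosterol synthase, had one 52.82 kb downstream (79.43) in an intron of Ftcd. Tm7sf2, a sterol reductase, had one 71.80 kb upstream (83.55) in Arl2, and the start of Batf2 was the nearest to it. Nsdhl, which takes part in removing the methyl groups of the ring, had one 92.80 kb upstream (50.34) in Gabrq. None of these 5 genes had an E9.5 peak within 100 kb, and neither did most protein-coding genes, of which 20.5% had one. For the X-linked genes Nsdhl and Ebp the nearest E9.5 peaks were 3550 and 3880 kb away.

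Hsd17b7 and Dhcr7 had no peak within 100 kb at either stage. Hsd17b7, a sterol ketoreductase, missed the limit narrowly at E10.5, with a peak 105 kb away (52.19). Dhcr7, which catalyzes the last step to cholesterol, had its nearest peaks 401 kb (E9.5) and 223 kb (E10.5) away. A gene without a listed peak is not thereby shown to be unbound, since the depth is unknown.

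**Figure D3:**
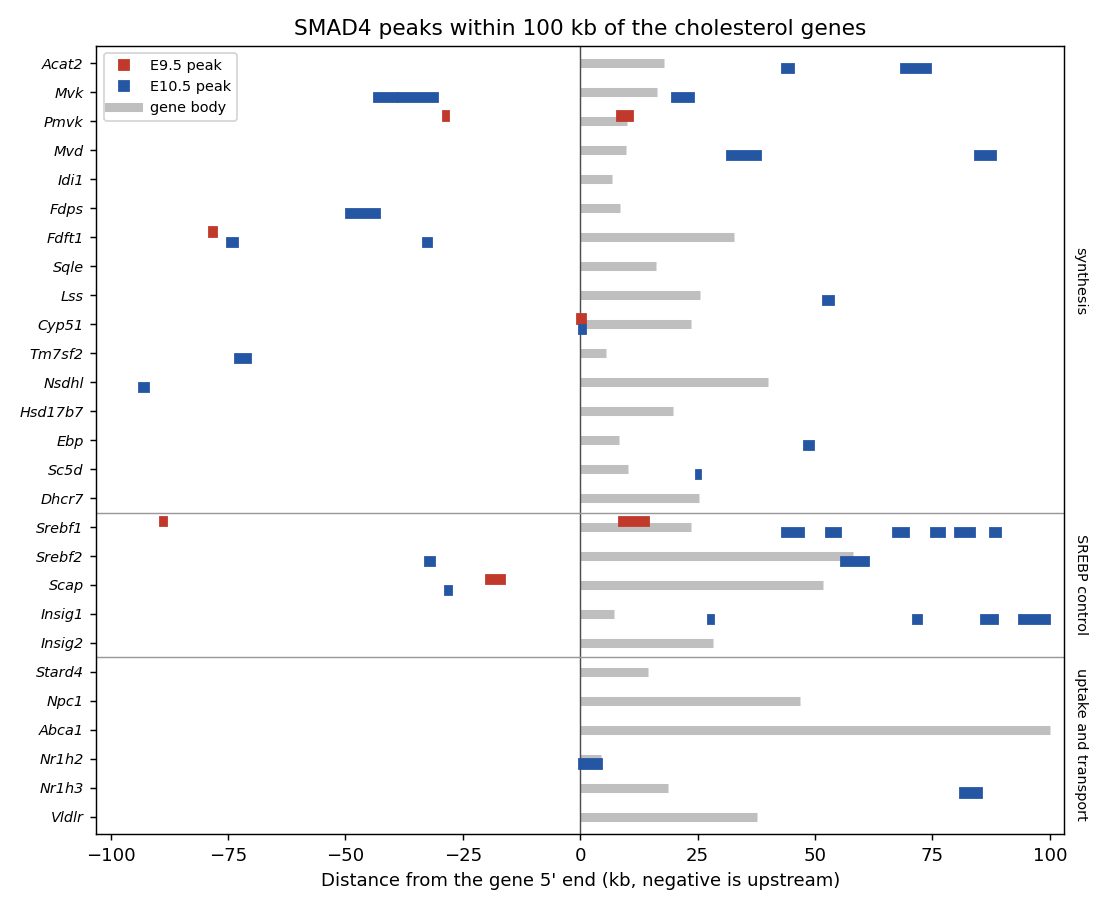
SMAD4 peaks with a centre within 100 kb of each cholesterol gene, drawn to scale along the distance from the gene 5′ end (kb, upstream negative), with E9.5 peaks in red, E10.5 peaks in blue and gene bodies in gray (cut off at 100 kb). The map holds 7 E9.5 peaks and 31 E10.5 peaks, and red and blue overlap only at Cyp51.

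Among the genes of SREBP control, Srebf1, which encodes the SREBP1 proteins from alternative starts, had the most peaks. Its E9.5 peak at chr11:60021393-60027734 was 6342 bp wide, with a score of 63.83, and was centred 11.52 kb inside the gene in an intron. Of the 13 annotated transcript starts of Srebf1, 3 lay within this peak, 0.60 to 0.71 kb from its centre. A second E9.5 peak (39.68) lay 88.80 kb upstream in Tom1l2. At E10.5, no peak overlapped Srebf1, and 6 peaks with scores from 61.08 to 86.15 lay 45.31 to 88.48 kb downstream, all in introns of Rai1. The start of Srebf1 was the nearest to 2 of these 6, and that of Rai1 to the other 4.

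Srebf2, which encodes SREBP2, the main activator of sterol synthesis genes, had no E9.5 peak within 100 kb. At E10.5 it had a peak 31.97 kb upstream (58.0), in an intron of Mei1, and one 58.58 kb downstream at chr15:82033296-82039258 (66.9), which overlapped the 3′ end of Srebf2. Scap, the escort of the SREBPs, had an E9.5 peak 18.02 kb upstream (43.19, rank 1804 of 2073) and an E10.5 peak 28.08 kb upstream (65.72), which did not overlap. Both lay in the neighboring gene 2610002I17Rik.

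Insig1, which retains SCAP when sterols are plentiful, had 4 E10.5 peaks within 100 kb and no E9.5 peak closer than 1370 kb. The nearest, at chr5:28425253-28426462, was 27.91 kb downstream, intergenic and nearer to Insig1 than to any other protein-coding gene. Its score of 146.59 ranked 124 of 6185 and was the highest of the 31 E10.5 peaks around cholesterol genes. The other 3 lay 71.84 kb (58.16), 87.12 kb (75.25) and 96.75 kb (54.45) downstream, nearest to the start of En2. Insig2, the second INSIG gene, had its nearest peaks 473 kb (E9.5) and 354 kb (E10.5) away.

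The Insig1 peak of E10.5 lay on a tandem repeat of the SMAD box. The peak held 134 CAGAC matches, all on the plus strand, of which 61 were CAGACC, in 1210 bp. This amounts to 111 matches per kb, against a median of 2.74 per kb over all E10.5 peaks and 89.5 in the next highest. The 30 bases at chr5:28425856-28425885 (mm9, plus strand), chosen after these values were seen, show the repeat with each SMAD box in capitals.
Insig1 repeat: CAGACcCAGACcCAGACcCAGACcCAGACc

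Repeats of this kind were mostly without a peak. Across the genome, 564 stretches had at least 20 CAGAC matches within 300 bp, of which 17 (3.01%) overlapped an E9.5 peak, 11 (1.95%) an E10.5 peak and 7 both. The peaks covered 0.118% (E9.5) and 0.745% (E10.5) of the chromosome length. These are shares of bases, whereas a stretch counted when any part of it met a peak, so the measures are unlike. Neighboring stretches could also fall in the same peak, as in the E10.5 peak ranked 8. The stretch at Insig1, chr5:28424828-28426173, was 1346 bp long with 183 matches and had no E9.5 peak. The reads were kept only when they mapped to a unique position, and the part of read mapping in the peaks found or missed on such repeats was not tested.

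Among the genes of uptake and transport, Nr1h2 and Nr1h3 had a peak within 100 kb, both at E10.5. The Nr1h2 peak at chr7:51804729-51809550 (4822 bp, score 88.83, rank 813 of 6185) spanned the whole gene, was centred 2.18 kb inside it in a coding exon, and contained all 11 annotated transcript starts. At E9.5 the nearest peak to Nr1h2 was 553 kb away. Nr1h3, which encodes LXRα, had an E10.5 peak 83.17 kb downstream (65.35) in an intron of Mybpc3.

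The other 4 genes of this group had no peak within 100 kb at either stage. The nearest E9.5 and E10.5 peaks were 250 and 908 kb away for Stard4, a sterol carrier, and 253 and 213 kb away for Npc1, which exports cholesterol from lysosomes. They were 281 and 472 kb away for Abca1, the cholesterol efflux transporter and an LXR target. For Vldlr, a lipoprotein receptor, they were 1590 and 107 kb away.

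The peaks around the cholesterol genes were spread through the rank order of both lists. The 7 E9.5 peaks had a median score of 63.8 and ranged from 39.68 to 236.67. The 31 E10.5 peaks had a median of 65.7 and ranged from 33.93 to 146.59. Of the 31, 12 (38.7%) were in the best-scored 25% of the list and 21 (67.7%) in the best-scored 50%. A score of at least 100 was reached by 2 of the 7 (28.6%, against 10.0% of the list) and by 3 of the 31 (9.68%, against 8.44%). The peaks were wider than the list median, with medians of 1836 bp against 1244 bp at E9.5 and 3322 bp against 2552 bp at E10.5. Scores were not compared between stages.

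**Figure D4:**
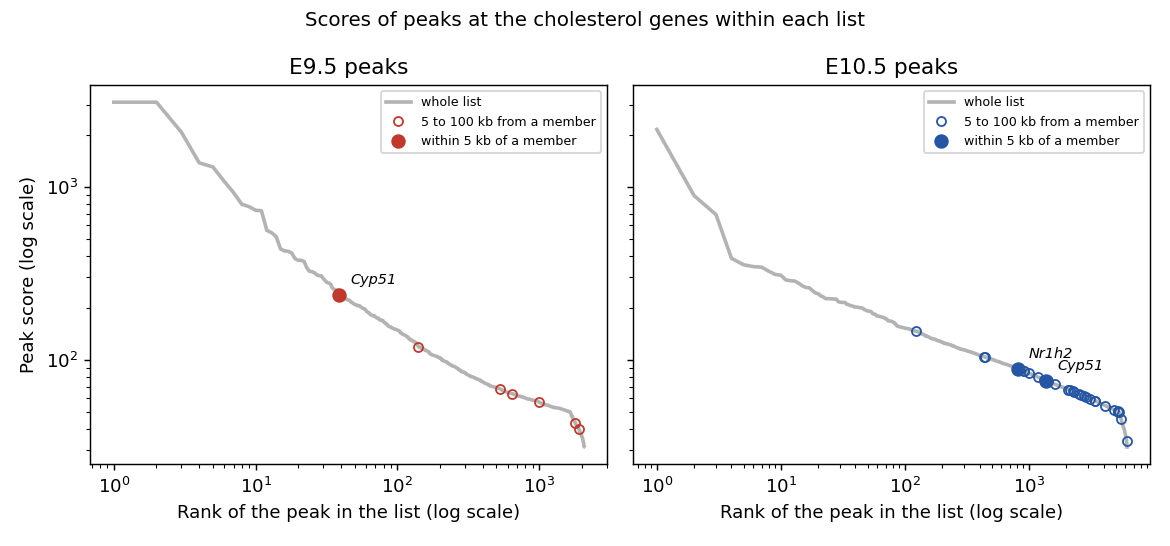
Peak score (log scale) by rank of the peak (log scale) in the E9.5 list (left) and the E10.5 list (right). The gray line is the whole list, open circles are peaks 5 to 100 kb from a cholesterol gene and filled circles are peaks within 5 kb. Cyp51 at E9.5 ranks 39 with a score of 236.67, and the other peaks near cholesterol genes lie further down the lists.

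A peak within 100 kb of a cholesterol gene can be nearer to the start of another gene, so the nearest start was counted. Of the 7 E9.5 peaks, 3 had a cholesterol gene as the nearest protein-coding gene (Cyp51, Pmvk and Srebf1). Of the 31 E10.5 peaks, 7 had one (in Cyp51, Insig1, Mvk, Nr1h2, Sc5d and, with 2 peaks, Srebf1), and 24 did not. Counted by gene, 3 of the 27 cholesterol genes (11.1%) were nearest to an E9.5 peak within 100 kb, against 6.74% of all protein-coding genes. At E10.5 there were 6 (22.2%), against 20.3%, a share near the background. At E9.5, 4 of the 7 centres lay in introns and 3 in untranslated regions, with 4 upstream and 3 downstream of the 5′ end of the cholesterol gene. At E10.5, 19 of the 31 centres lay in introns, 5 in coding exons, 1 in an untranslated region and 6 between genes. Of the 31, 22 lay downstream of that 5′ end, among them 6 at Srebf1 and 4 at Insig1. No share over the whole lists is given for these positions. A peak overlapped the gene body of 3 cholesterol genes at E9.5 (Pmvk, Cyp51 and Srebf1, 11.1%), against 5.29% of all protein-coding genes. At E10.5 a peak overlapped 3 (Cyp51, Srebf2 and Nr1h2, 11.1%), against 19.4%.

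In the peaks near cholesterol genes, CAGAC was about as frequent as in the lists, and the shares of the other SMAD motifs lay above or below those of the lists by stage, on small numbers. Matches were searched on both strands in 300 bp at the peak centre, and every CAGACC match is also a CAGAC match. At E9.5, CAGAC was found in 4 of the 7 peaks (57.1%), against 60.6% of the list, CAGACC in 1 (14.3%), against 20.9%, and GGCGCC in 2 (28.6%), against 12.6%. With a window of 500 bp, CAGAC was in all 7 (100%), against 77.1%. At E10.5, CAGAC was found in 18 of the 31 peaks (58.1%), against 53.2% (with 500 bp, 80.6% against 71.6%). CAGACC was found in 9 (29.0%), against 19.7%, and with a window of 500 bp in 14 (45.2%), against 30.9%. GGCGCC was found in 1 of the 31 (3.23%), against 13.1%, and with a window of 500 bp in 5 (16.1%), against 19.5%. The palindrome GTCTAGAC was in none of the 38 peaks, and in 1.21% of the E9.5 list and 0.420% of the E10.5 list.

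Within the 300 bp at its centre, the E9.5 peak at Cyp51 had 3 CAGAC matches, a number reached by 10.1% of the E9.5 peaks, and the Pmvk peak had 5, reached by 2.17%. The E9.5 peak in Srebf1 and the E10.5 peaks at Cyp51 and Nr1h2 had none in that window. Over its full width, the E9.5 Cyp51 peak held 9 CAGAC, 2 CAGACC and 1 GGCGCC matches, and the Nr1h2 peak held 10, 6 and 1. All 9 of these CAGAC matches at Cyp51 also lay within its E10.5 peak, none of them whole within the 300 bp at the centre.

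The starts of the cholesterol genes, from 250 bp before to 50 bp after the 5′ end, held CAGAC in 15 of 27 genes (55.6%), against 48.5% of all protein-coding genes. CAGACC was found in 5 (18.5%, against 16.4%) and GGCGCC in 3 (Sqle, Cyp51 and Nr1h2; 11.1%, against 14.3%). The letters TCACNCCAC, a strict form of the sterol regulatory element bound by SREBPs, were in none of the 27 starts and in 1.22% of all starts. They were likewise in none of the 300 bp windows of the 38 peaks, and in 1.16% (E9.5) and 1.29% (E10.5) of the lists.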

How the data were processed

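For SMAD4 ChIP and input, the authors cut all reads to 1 length and aligned them with Bowtie (version 1.1.0 in the submitters' processing notes) with only unique matches kept. Peaks were called with MACS (version 1.4 there) against input at a permissive threshold. The 2 replicates of a stage were merged with MSPC. The score deposited for each peak has no unit in the file; the methods describe it as the best MACS p-value, presumably as a multiple of its negative log10, so that it was read only within a list. The authors' peaks are in mm9 coordinates, and gene models were GENCODE vM1 (NCBIM37).

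Distances were computed (Python 3.11.15, NumPy 2.4.6) from the peak centre to the gene 5′ end. Limits of 5 and 100 kb were used, and an overlap of 1 bp made a peak shared. Hmgcs1 has no entry under that name in this annotation. The genes named are all members, with the nearest and the best-scored peak of each stage, the genes whose start is nearest to such a peak, and other pathway genes with a peak within 5 kb, of which some are not reported here. Further peaks, and genes in which a peak lies, were added after their values were seen. The members and lists were chosen with earlier results of these data known. Counting was tested on simulated peaks. No significance test was made, because each stage has 1 combined list. Alternatives were other gene starts, peak edges, scores, list lengths, distances, peak assignments, motif windows and backgrounds.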

Additional observations from a re-analysis of the deposited data

How the results depend on the processing

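The number of cholesterol genes with an E10.5 peak within 100 kb, 17, became 2 with peaks of score 100 or more (7.41%, against 8.76% of all genes), 8 with the E10.5 list shortened to the 2073 best-scored peaks (29.6%, against 28%), 6 when a peak counted only for its nearest protein-coding gene (22.2%, against 20.3%) and 27 within 1000 kb (100%, against 91.2%). The number within 5 kb at E10.5, 2, became 0 with scores of 100 or more (against 1.84% of all genes). At E9.5, the number within 100 kb, 5, became 2 with scores of 100 or more (7.41%, against 3.03%), 3 with the nearest gene only (11.1%, against 6.74%) and 23 within 1000 kb (85.2%, against 78.3%). The number within 5 kb at E9.5, 1, became 2 from any annotated transcript start (adding Srebf1; 7.41%, against 3.21%), 2 within 10 kb (adding Pmvk; 7.41%, against 3.60%) and 3 when a peak anywhere in the gene body counted (11.1%, against 5.29%), an alternative chosen after seeing the data. These rules also change the share of all genes. The other values of these counts stayed within 1.5 times. The Cyp51 pair was shared under every definition tried (1 bp, reciprocal overlap of 50%, centres within 250 bp). No paired analysis was possible because the replicates are combined in 1 list per stage, and no replicate could be left out. Depth is unknown, so genes without a listed peak are not shown to be unbound.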

Other observations

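A further 37 genes around the pathway, in 4 lists, were counted in the same way. Within 100 kb, 7 of the 37 (18.9%) had a peak at E9.5, against 20.5% of all protein-coding genes, and 24 (64.9%) at E10.5, against 52.9%. Within 5 kb at E10.5, 5 of the 37 (13.5%) had a peak, a share near the 13.0% of all protein-coding genes. Among these peaks were those at Mylip, a ubiquitin ligase that acts on lipoprotein receptors (score 92.77), Elovl6, a fatty acid elongase (75.36), and Fads2, a fatty acid desaturase (32.78). None of these 3 genes had an E9.5 peak within 5 kb. Within 100 kb at E10.5, 10 of 12 genes of uptake, storage and transport had a peak (83.3%), whereas among the cholesterol genes 2 of 6 with that role did. The same held for 8 of 12 genes of fatty acid synthesis (66.7%), 4 of 6 of SREBP processing and INSIG turnover, and 2 of 7 of the isoprenoid branch and electron supply.

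The nearest E9.5 peak to Sc5d, 313 kb away, was among the best-scored of the E9.5 list (296.58, rank 30 of 2073), and the start of Sorl1 was the nearest to it.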
